A study of Tegula funebralis with 16 samples.

Results

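Transcripts of 3 partners of the chaperone HSP70 were described in the intertidal snail Chlorostoma (Tegula) funebralis: DNAJB1 (SR_contig_17338), a BAG3-like regulator (SR_contig_31772) and HSPBP1 (SR_contig_16467_C3.1). They are 3 of the 15903 assembled contigs in the expression table, taken by their contig identifiers. The table names them dnaj homolog subfamily b member 1, bag family molecular chaperone regulator 3-like, and hspa (heat shock 70kda) binding cytoplasmic cochaperone 1, the last being the full name of HSPBP1. A contig is an assembled transcript or a piece of 1. All 3 averaged at least 10 normalised counts, the requirement that 14444 contigs met. DNAJB1 and the BAG3-like contig were selected on the size of their rise under heat, and HSPBP1 on the difference of its rise between regions, both measured in these same libraries. Those values are therefore given as descriptions, with no test.

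Heated animals had air warmed from 15 °C by 3 °C every 0.5 hours up to 34 °C, in a trial of 5.5 hours that ended with 2 hours and 20 minutes at 34 °C. Control animals spent 5.5 hours in air at 15 °C in the same incubator. Animals came from 2 southern Californian sites, La Jolla and Aliso Beach, and 2 northern ones, Pigeon Point and Slide Ranch. Each site gave 2 heated and 2 control libraries of whole animals, 16 in all, with 17594009 to 26103215 recovered reads each. RNA was extracted from single individuals, but how many went into a library is not stated. The p-values therefore cover only the spread among these libraries, which may be technical. Nor do they state where or how long the snails were kept before the trial. In whole animals, more RNA per cell and more cells of a type cannot be told apart.

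HSP70 works as a cycle driven by ATP. A J-domain protein such as DNAJB1, a member of the HSP40 family, delivers an unfolded client and makes HSP70 split its ATP, which locks the client in place. Nucleotide exchange factors then swap the spent ADP for fresh ATP and let the client go. BAG-domain proteins and HSPBP1 both belong to this class in human cells, and the HSP110 family is another such group. In mammals BAG3 also ties HSP70 to small heat shock proteins and to sequestosome 1, a route by which damaged proteins reach autophagy, and this route is best known in muscle. Inducible forms of HSP70 and DNAJB1 are classic targets of heat shock factor 1 in human cells.

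Library 1 of La Jolla and library 1 of Pigeon Point, under both treatments, stood apart from the other 12. A single contig, SR_contig_83, took 16.6% to 39.2% of their reads, against 1.58% to 6.80% elsewhere. Each region and each treatment holds 2 of these 4, and values without them are given beside the results they touch.

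DNAJB1 transcripts were more than 100 times as abundant in any heated library as in any control library. At the southern sites the heated libraries had 263331 and 223870 normalised counts at La Jolla, and 214151 and 200222 at Aliso Beach. The northern heated libraries had 288492 and 255917 at Pigeon Point, and 266319 and 273080 at Slide Ranch. In control libraries DNAJB1 had 1785 and 1630 at La Jolla, 1077 and 1344 at Aliso Beach, 1985 and 1023 at Pigeon Point, and 1463 and 1327 at Slide Ranch. Heated and control libraries thus lay far apart, and the lowest heated one was 101 times the highest control. The means were 248173 ± 31424 in heated and 1454 ± 333 in control libraries (SD, n = 8 each). The log2 fold change, averaged over the sites on the log2(count + 1) scale, was 7.44 ± 0.14 (SE), the ninth among 14444 contigs, and 7.52 without the 4 libraries. Under heat this 1 transcript made up 0.533% of all reads in La Jolla heat 1 (Wilson 95% interval 0.530% to 0.536%) and 1.40% in Slide Ranch heat 2 (1.39% to 1.40%), the lowest and the highest share, and the first of these is one of the 4 libraries that stand apart. In controls its share was 0.00647% to 0.0105%. Intervals on shares cover counting error only.

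The BAG3-like transcript was, like DNAJB1, picked for the size of its rise, and the rises of both were close. Heated libraries had 72496 and 75009 normalised counts at La Jolla, 70207 and 68827 at Aliso Beach, 85608 and 82558 at Pigeon Point, and 101108 and 89740 at Slide Ranch. Control libraries had 684 and 584 at La Jolla, 481 and 519 at Aliso Beach, 652 and 446 at Pigeon Point, and 455 and 464 at Slide Ranch. All heated libraries were again above all controls, and the 2 heated libraries of each site lay close to each other. The means were 80694 ± 11190 in heated and 536 ± 93.4 in control libraries (SD, n = 8 each). On the log2 scale the rise was 7.24 ± 0.10 (SE), or 7.34 without the 4 libraries. Its share of reads was 0.147% to 0.487% under heat and 0.00255% to 0.00376% in controls. It was the only contig of the BAG family that the name search found, so no other member of that family could be set beside it.

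HSPBP1, which in human cells binds the ATPase domain of HSP70, had a smaller fold change that varied more between sites. The contig was picked for a regional difference in its rise, which enters this variation. Heated libraries had 24702 and 17835 normalised counts at La Jolla, 13471 and 15457 at Aliso Beach, 27227 and 21642 at Pigeon Point, and 22519 and 24817 at Slide Ranch. Control libraries had 258 and 269 at La Jolla, 361 and 226 at Aliso Beach, 270 and 211 at Pigeon Point, and 183 and 140 at Slide Ranch. Both Aliso Beach libraries were the lowest under heat, and both Slide Ranch libraries were the lowest among controls. The means were 20959 ± 4887 in heated and 240 ± 66.5 in control libraries (SD, n = 8 each). On the log2 scale the rise was 6.46 ± 0.14 (SE), or 6.39 without the 4 libraries. The HSPBP1 contig rests on 186 to 486 reads per control library and 12049 to 25471 per heated one.

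**Figure D1:**
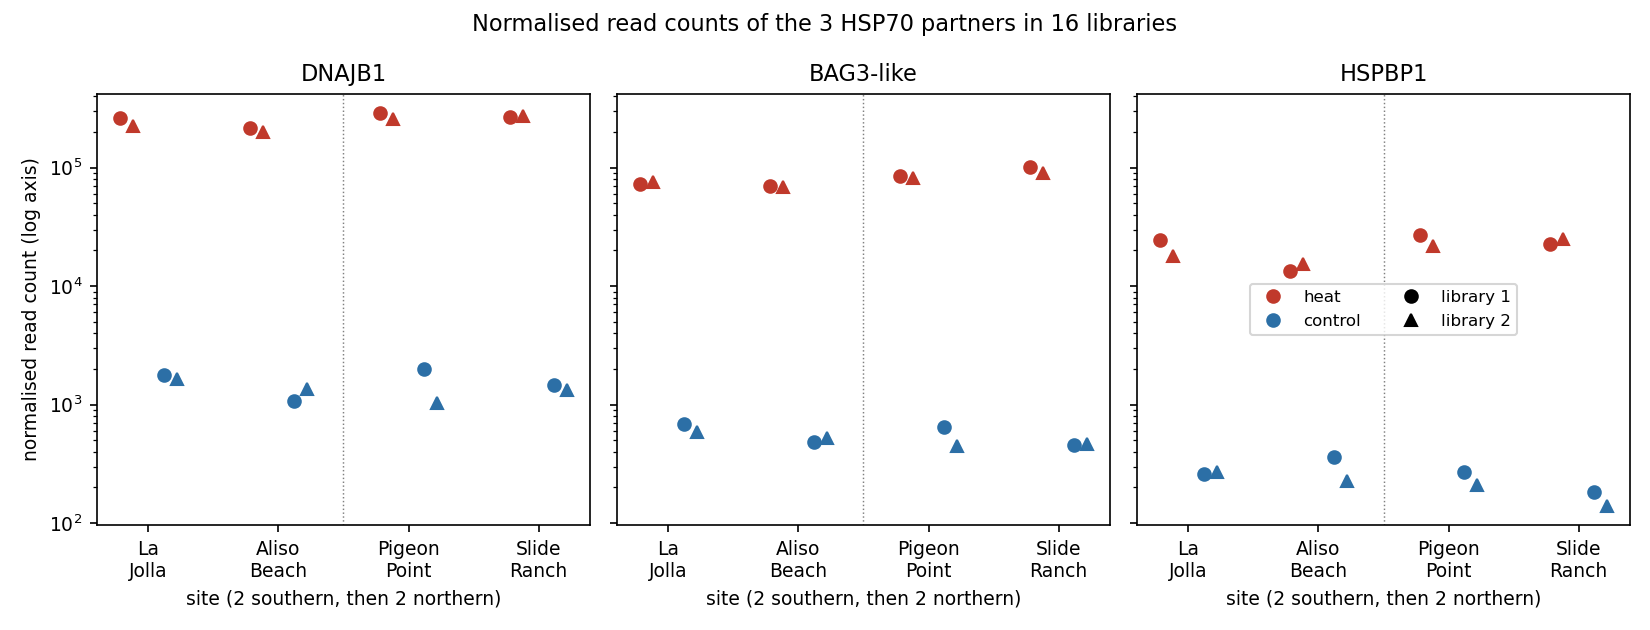
Normalised read counts (log axis) of DNAJB1, the BAG3-like contig and HSPBP1 by site, with 1 point per library, heated libraries in red and control libraries in blue. Heated libraries lie above all controls in each panel, with DNAJB1 between 200222 and 288492 under heat and between 1023 and 1985 in controls.

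Rises of this size are rare in the table, although they say nothing further about contigs that were picked for them. At a Benjamini-Hochberg adjusted p under 0.05 in limma, 4.24% of all tested contigs differed under heat, 2.08% being higher and 2.16% lower. Without the 4 libraries 10.6% were higher and 8.22% lower. Heated libraries all lay above the controls for 1.17% of contigs. Ranked by log2 fold change, DNAJB1 was 9th, the BAG3-like contig 11th and HSPBP1 15th of 14444. The median log2 fold change over all tested contigs was 0.00072.

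The ratio between partners also changed with heat, and such a change does not depend on the length of either contig. DNAJB1 over BAG3-like counts gave 3.09 ± 0.30 in heated and 2.71 ± 0.34 in control libraries (SD, n = 8 each), so both rose nearly in step. The choice of both by the size of their rise enters this ratio. DNAJB1 over HSPBP1 counts gave 12.2 ± 1.73 in heated and 6.45 ± 1.98 in control libraries. Against the inducible HSP70 contig SR_contig_18771_C3.1, DNAJB1 gave 0.618 ± 0.065 in heated and 5.92 ± 3.32 in control libraries. This HSP70 contig climbed further than its 3 partners, with a log2 fold change of 10.44. The ratio of DNAJB1 to it ranged from 0.506 to 0.710 under heat and from 1.66 to 10.4 in controls. By region it was 3.48 ± 1.97 in southern and 8.37 ± 2.44 in northern controls (SD, n = 4 each), against 0.630 ± 0.050 in southern and 0.606 ± 0.084 in northern heated libraries. HSPBP1 over the same HSP70 contig gave 0.0512 ± 0.0050 in heated and 0.923 ± 0.499 in control libraries. The control mean was 0.642 ± 0.285 in the south and 1.20 ± 0.538 in the north. DNAJB1 itself had 1459 ± 313 normalised counts in southern and 1449 ± 402 in northern controls. HSPBP1 had 278 ± 57.8 and 201 ± 54.5, and the HSP70 contig ranged from 111 to 979 over all control libraries.

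The heat effect was then taken at each site, since the study sets southern against northern snails. For DNAJB1 the log2 fold change was 7.15 at La Jolla, 7.43 at Aliso Beach, 7.57 at Pigeon Point and 7.60 at Slide Ranch, each with an SE of 0.28. The 4 values differed from each other by less than 2 of these errors. For the BAG3-like contig the values were 6.86, 7.12, 7.28 and 7.69 in the same order of sites, each with an SE of 0.21. For HSPBP1 they were 6.31, 5.66, 6.66 and 7.20, each with an SE of 0.27. HSPBP1 thus spanned the widest range, from a 49.3-fold ratio of means at Aliso Beach to a 147-fold one at Slide Ranch. Since it was picked for a regional difference in its rise, which enters this range, the width is only a description.

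**Figure D2:**
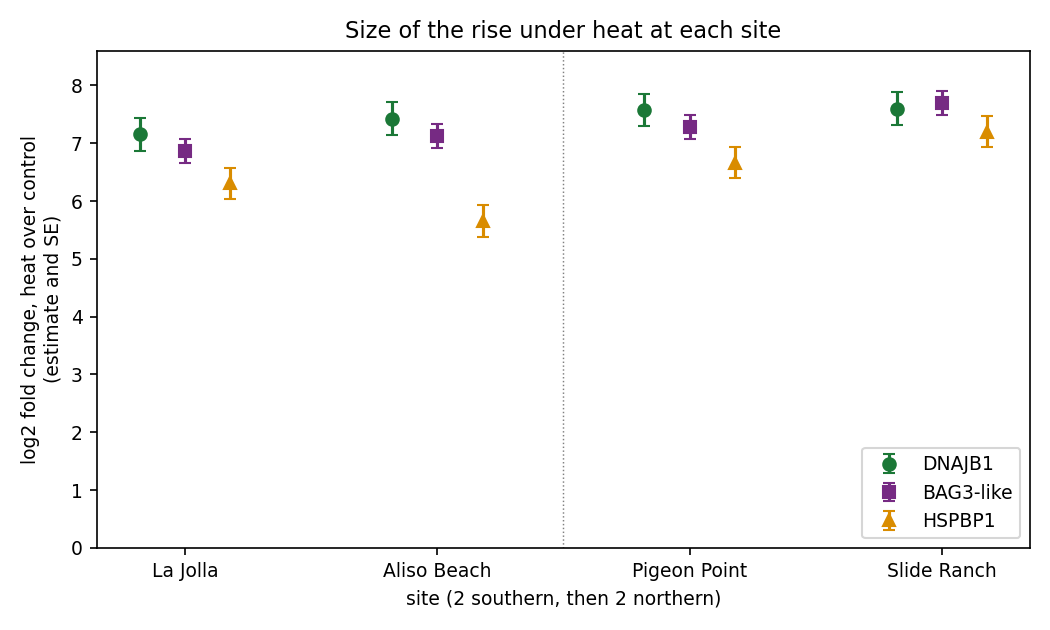
Log2 fold change of heat over control at each site, southern sites left of northern ones, with 1 symbol per contig and bars for the SE. DNAJB1 lies between 7.15 and 7.60, the BAG3-like contig between 6.86 and 7.69, and HSPBP1 between 5.66 and 7.20.

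The regional difference in the rise was not called for DNAJB1 or the BAG3-like contig. For DNAJB1 the southern rise was 7.29 and the northern 7.58, a difference of -0.30 ± 0.28 (SE) with a 95% interval of -0.92 to 0.33 and an adjusted p of 1 in limma. For the BAG3-like contig the southern rise was 6.99 and the northern 7.49, a difference of -0.50 ± 0.21. Its 95% interval, -0.95 to -0.044, takes no account of the number of contigs tested, and the adjusted p was 1 in limma. No contig of the table was called in this comparison in limma (0%), edgeR or DESeq2, and 2 were without the 4 libraries that stand apart. An unadjusted p under 0.05 was reached by 1.36% of contigs, among them the BAG3-like one (unadjusted p = 0.0344 in limma). HSPBP1, picked with this difference known, had 5.98 in the south and 6.93 in the north, a difference of -0.95 ± 0.27. Over the 12 libraries that do not stand apart the differences were -0.52 for DNAJB1 (adjusted p = 0.606 in limma), -0.55 for the BAG3-like contig (adjusted p = 0.529 in limma) and -1.09 for HSPBP1. The DNAJB1 difference hung on the Pigeon Point controls, being -0.53 without the first of them and -0.057 without the second. A test for any difference in the rise among the 4 sites called no contig in limma or edgeR, 2 in DESeq2 and 3 in limma without the 4 libraries, while 0.782% had an unadjusted p under 0.05 in limma. The unadjusted p was 0.677 for DNAJB1 and 0.0854 for the BAG3-like contig, and both adjusted p-values were 1 in limma.

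Under heat itself, southern levels of the BAG3-like transcript lay below northern ones without overlap. It had 71635 ± 2711 normalised counts in southern and 89753 ± 8122 in northern heated libraries (SD, n = 4 each). The highest southern value was 75009 and the lowest northern one 82558. The log2 difference was -0.32 ± 0.15 (SE). Its unadjusted p in limma was 0.0491, a level that 14.2% of all tested contigs stayed under. Adjusted over the whole table it was 0.349 in limma, so the difference was not called, whereas 1.16% of contigs were. An exact two-sided permutation test over the 8 libraries gave p = 0.0286, the smallest that 4 against 4 can give, or 0.114 adjusted over the 4 such tests made. It counts libraries as replicates of a region, although each region has only 2 sites and the libraries of a site lay together. Every southern heated library lay below every northern one for 3.25% of all tested contigs. Ordered by mean, Slide Ranch came first, then Pigeon Point, La Jolla and Aliso Beach, and the libraries of neighbours in this order did not overlap.

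DNAJB1 under heat showed a difference of similar size with some overlap. It had 225394 ± 27090 normalised counts in southern and 270952 ± 13659 in northern heated libraries (SD, n = 4 each). On the log2 scale they differed by -0.27 ± 0.20 (SE), with an adjusted p of 0.626 in limma and a 95% interval of -0.71 to 0.17. The exact two-sided permutation test gave p = 0.0571, or 0.114 adjusted over the 4 tests. The overlap came from La Jolla heat 1, at 263331, which stood above Pigeon Point heat 2, at 255917. Pigeon Point and Slide Ranch overlapped each other, while La Jolla and Aliso Beach followed below them. HSPBP1 had 17867 ± 4894 in southern and 24051 ± 2505 in northern heated libraries, a log2 difference of -0.46 ± 0.19, and only Aliso Beach did not overlap another site. La Jolla heat 1 and Pigeon Point heat 1 are among the 4 libraries that stand apart. Without those 2, the southern heated libraries of all 3 transcripts lay below the northern ones, as did those of 16.6% of all tested contigs. The log2 differences were then -0.29 for DNAJB1 (adjusted p = 0.172 in limma), -0.30 for the BAG3-like contig (adjusted p = 0.0938 in limma) and -0.50 for HSPBP1.

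**Figure D3:**
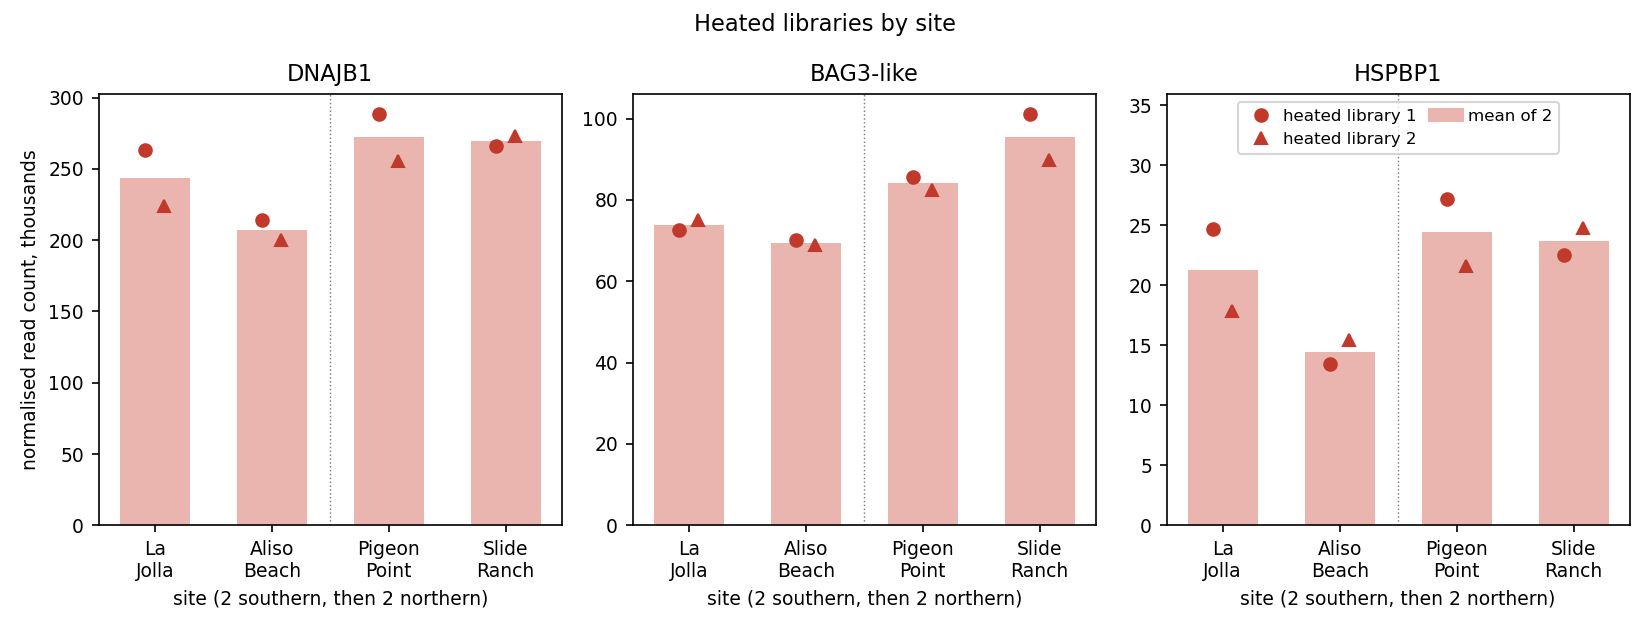
Normalised read counts (linear axes from 0) of the 8 heated libraries by site, southern sites left of northern ones, with bars for the mean of 2 libraries and a separate axis for each contig. The 4 southern BAG3-like values, up to 75009, lie below the 4 northern ones, from 82558.

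In control libraries no regional difference was called for DNAJB1 or the BAG3-like contig, while HSPBP1 was described and not tested. DNAJB1 had 1459 ± 313 normalised counts in southern and 1449 ± 402 in northern controls (SD, n = 4 each). On the log2 scale they differed by 0.024 ± 0.20 (SE), with a 95% interval of -0.42 to 0.46 and an adjusted p of 0.999 in limma. Leaving out Pigeon Point control 2, which had the lowest DNAJB1 value, turned this difference to -0.21, and leaving out Pigeon Point control 1 made it 0.26. It also fell just below 0 without Slide Ranch control 2 (-0.011), Aliso Beach control 2 (-0.056) or La Jolla control 1 (-0.0088). The BAG3-like contig had 567 ± 89.1 in southern and 504 ± 98.9 in northern controls, a log2 difference of 0.17 ± 0.15 with an adjusted p of 0.891 in limma. This was 0.31 without Pigeon Point control 1 and 0.038 without Pigeon Point control 2. In this comparison 0.263% of tested contigs were called. HSPBP1 had 278 ± 57.8 in southern and 201 ± 54.5 in northern controls, a log2 difference of 0.49 ± 0.19 that went the opposite way from its heated one, and of 0.32 without Aliso Beach control 1. Over the 12 libraries that do not stand apart the control differences were 0.23 for DNAJB1 (adjusted p = 0.306 in limma), 0.25 for the BAG3-like contig (adjusted p = 0.174 in limma) and 0.59 for HSPBP1. Among the 4 sites, control levels of DNAJB1 overlapped from each site to the next, with La Jolla highest and Aliso Beach lowest by mean. BAG3-like control means were also highest at La Jolla and were lowest at Slide Ranch. The Slide Ranch libraries lay just under those of Aliso Beach but within the range of Pigeon Point, 446 to 652. The test over 4 sites gave an adjusted p of 0.990 for DNAJB1 and 0.986 for the BAG3-like contig in limma, where 0.395% of contigs were called.

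Tissue markers set by name were summed, since regions could differ in the makeup of the animals, which such sums alone cannot show. The 29 ovary and egg contigs, all above 0 in every library, summed to between 427045 and 686823 normalised counts in southern heated libraries and between 281397 and 567214 in northern ones. The 28 muscle contigs, of which 25 were above 0 in every library, summed to 123963 to 208881 in southern and 164512 to 190844 in northern heated libraries. The 44 testis and sperm contigs, all above 0 in every library, summed to 19099 to 29020 in southern and 20231 to 22027 in northern heated libraries. In controls the ovary and egg sums did not overlap between regions, at 339812 to 467027 in southern and 213952 to 309912 in northern libraries. Muscle sums were 105566 to 200294 in southern and 124966 to 149484 in northern controls, and testis and sperm sums 20287 to 29870 in southern and 21190 to 22368 in northern ones. Between treatments, northern muscle sums lay higher under heat than in controls without overlap. The median ovary and egg sum was 575284 in southern heated and 424743 in southern control libraries, and 381453 in northern heated and 278211 in northern control libraries. The part of these differences in the values of the partners, between regions or treatments, was not tested.

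By normalised counts, libraries of 1 treatment that had more DNAJB1 also tended to have more of the BAG3-like transcript. Over the 8 control libraries Pearson's r on the log2(count + 1) scale was 0.84 (exact permutation p = 0.00997, or 0.0299 adjusted over 6 relations) and Spearman's rho was 0.81 (exact permutation p = 0.0218, adjusted 0.0436). It was 0.75 without the 2 libraries farthest from the median DNAJB1 level. Without the libraries that stand apart, which include the 2 highest in both transcripts, r was 0.64 over 6 libraries (exact permutation p = 0.169, adjusted 0.254). Over the 8 heated libraries r was 0.74 (exact permutation p = 0.0408, adjusted 0.0816) and rho was 0.83 (exact permutation p = 0.0154, adjusted 0.0436). There r was 0.48 without the 2 farthest libraries, so the relation rests in part on those, and 0.92 over the 6 that do not stand apart (exact permutation p = 0.0167, adjusted 0.0625). The libraries share sites and treatments in pairs, so the order of sites under heat enters these values. By share of all reads, Pigeon Point control 1 and La Jolla control 1 had the lowest BAG3-like levels among controls, 0.00255% and 0.00267%. Both transcripts of a library are divided by the same size factor, and the part of this in r was not tested.

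HSPBP1 ran close to DNAJB1 among heated libraries. Since it was picked for a regional difference, which enters these values, they are descriptions. Pearson's r with DNAJB1 was 0.95 over 8 heated libraries and 0.073 over 8 control libraries, and -0.23 over the 6 controls that do not stand apart. With the BAG3-like contig it was 0.65 over heated and 0.45 over control libraries.

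**Figure D4:**
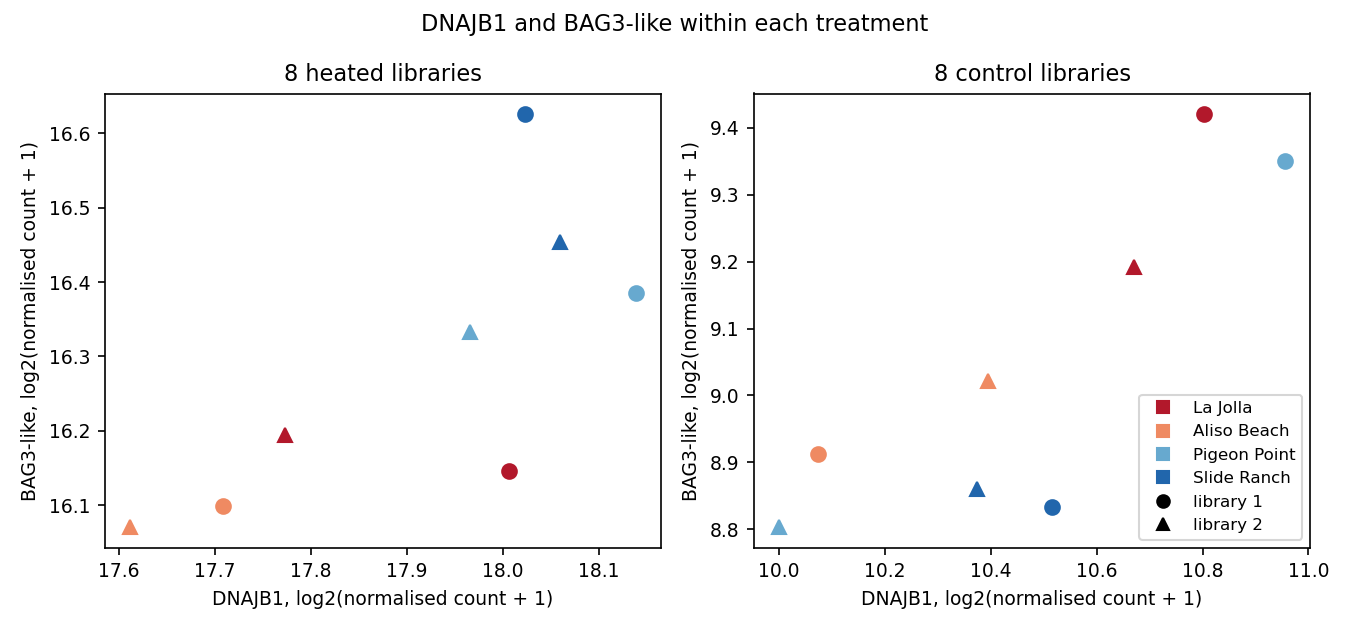
BAG3-like against DNAJB1 levels on the log2(count + 1) scale, in the 8 heated libraries on the left and the 8 control libraries on the right, coloured by site, with circles for library 1 and triangles for library 2. Pearson's r is 0.74 in heated and 0.84 in control libraries, and the upper right corner of the control panel holds the first libraries of La Jolla and Pigeon Point.

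Pooled over the 8 groups of site and treatment, the 3 transcripts varied less between libraries than the median contig. Single pairs could still lie far apart, the widest being DNAJB1 in Pigeon Point controls, at 1985 and 1023 normalised counts. The SD between libraries on the log2 scale was 0.16 for the BAG3-like contig, 0.27 for DNAJB1 and 0.26 for HSPBP1, against a median of 0.45 over all tested contigs. The BAG3-like value stood at the 4.37th percentile, and the other two at the 20.7th and the 20.1st. This ranking takes no account of level, and higher counts carry less counting error.

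Which other transcripts behaved most like the partners was read from the root mean square difference in log2(count + 1) over the 16 libraries, after centring each contig on its own mean. This measure mostly reflects the size of the rise. The nearest to DNAJB1 among 7377 named contigs with a mean of at least 50 was the BAG3-like contig, at 0.18, and DNAJB1 was in turn the nearest to it. Both had been picked for the size of their rise, so their nearness is only a description. Next to both came a baculoviral IAP repeat-containing protein 3-like contig (SR_contig_6960_C3.1), an inhibitor of cell death, at 0.40 from DNAJB1 and 0.32 from the BAG3-like contig. It had 46368 ± 7889 normalised counts in heated and 428 ± 62.6 in control libraries (SD, n = 8 each). After it for both came an OTU domain-containing protein 3-like contig (SR_contig_5041), of a family of enzymes that remove ubiquitin, at 0.47 and 0.38. It had 50468 ± 10395 in heated and 478 ± 69.5 in control libraries, and at 0.24 it was the nearest contig to HSPBP1. An HSP70 contig (SR_contig_5144) was among the nearest 5 of each partner, at 0.60 from DNAJB1, 0.51 from the BAG3-like contig and 0.31 from HSPBP1. For HSPBP1 the list also held a contig named for cactus, the fly's inhibitor of NF-kappa-B (SR_contig_17890_C3.1), at 0.54.

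The rest of the HSP70 cycle was read from 9 lists set by name patterns, which left out the 3 partners and matched 54 other contigs, 53 of them tested. At an adjusted p under 0.05 in limma 20 of the 53, or 37.7%, rose under heat and none fell, against 2.08% and 2.16% of all tested contigs. Without the 4 libraries that stand apart 26 rose and none fell, against 10.6% and 8.22%. The median log2 fold change over the 53 was 0.31. The lists were drawn up with earlier results of these data known, so their counts describe the machinery around the 3 partners and test nothing about it.

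Some J-domain proteins other than DNAJB1, whose own rise was described and not tested, passed the test. Of 13 tested, 3 (23.1%) rose and none fell, against 2.08% and 2.16% of all tested contigs. The list's median log2 fold change was 0.18. DNAJA1 (SR_contig_42313), a J-domain protein of the cytosol, rose by 4.15 ± 0.11 (SE) on the log2 scale, at an adjusted p of 5.0e-10 in limma. It had 10006 ± 1913 normalised counts in heated and 562 ± 104.9 in control libraries (SD, n = 8 each), with no overlap. DNAJA2 (SR_contig_63_C3.2) rose by 1.32 and a DNAJC16-like contig (SR_contig_136917) by 1.30, both also without overlap between treatments. A DNAJC3-like contig (SR_contig_46374), named for a J-domain protein of the endoplasmic reticulum, had a log2 fold change of 0.57 with an adjusted p of 0.0532 in limma, and 0.65 with an adjusted p of 0.00646 in limma without the 4 libraries. The other 2 contigs named for subfamily B had 0.030 (DNAJB11-like, SR_contig_27267) and -0.092 (DNAJB13-like, SR_contig_14850), and a contig with no member number (SR_contig_3093) had 0.18. Without the 4 libraries 5 of the 13 rose, against 10.6% of all tested contigs. Among them the DNAJB11-like one, an endoplasmic reticulum form, rose by 0.42 at an adjusted p of 0.0268 in limma. A sacsin-like contig fell short of the count requirement.

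Among nucleotide exchange factors other than BAG3 and HSPBP1, only the HSP110-type contig rose. It made up 16.7% of the 6 tested, against 2.08% higher among all tested contigs. This heat shock 70 kda protein 4-like contig (SR_contig_2239_C3.1) had 9954 ± 2455 normalised counts in heated and 1290.5 ± 168 in control libraries (SD, n = 8 each). Its log2 fold change was 2.92 ± 0.13 (SE), with an adjusted p of 7.7e-08 in limma. The other 5 contigs were all named SIL1, the exchange factor for the HSP70 of the endoplasmic reticulum, and none of them passed. Their log2 fold changes ran from -0.35 to 0.78, and several may belong to 1 gene.

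Of the adaptors that link HSP70 with HSP90, both contigs named stress-induced phosphoprotein 1, also known as HOP, rose. Over all tested contigs 2.08% were higher. SR_contig_22372 had 1319 ± 144 normalised counts in heated and 507 ± 77.4 in control libraries (SD, n = 8 each), and rose by 1.38 on the log2 scale. SR_contig_25806 had 98.2 ± 24.7 in heated and 3.44 ± 2.97 in control libraries, so the fitted rise of 4.85 on the log2 scale would move with the pseudocount. The HSC70-interacting protein contig (SR_contig_32191), an adaptor that slows the release of ADP, had 885 ± 197 in heated and 830.4 ± 250.1 in control libraries and a log2 fold change of 0.11 (adjusted p = 0.792 in limma).

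The chaperones of the HSP70, HSP90 and small heat shock protein lists rose with few exceptions, where 2.08% of all tested contigs were higher. Of 7 HSP70 contigs 6 (85.7%) rose, by 2.08 to 10.44 on the log2 scale. The other, heat shock 70 kda protein 14 (SR_contig_851), had 0.56 with an adjusted p of 0.150 in limma. Without the 4 libraries it had 0.51 with an adjusted p of 0.00792 in limma, where 10.6% of all tested contigs were higher. The HSP70 contig SR_contig_525, which rose by 2.08, had 187416 ± 39504 normalised counts in heated and 44343 ± 9467 in control libraries (SD, n = 8 each). Those that rose include contigs named for endoplasmic reticulum forms, GRP78 (SR_contig_7836, by 2.12) and BiP (SR_contig_18099_C3.1, by 7.88). GRP78 overlapped between treatments, with 12678 in its lowest heated and 13479 in its highest control library. The HSP90 contig (SR_contig_806_C3.1) rose by 3.67 and its activator AHA1-like (SR_contig_98140), which speeds the ATPase of HSP90, by 3.70. AHA1-like counts were 1233 ± 922 in heated and 84.3 ± 37.2 in control libraries. The 3 small heat shock proteins rose by 4.24 to 9.14.

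On the autophagy side of BAG3, the adaptor rose and the rest of the list did not pass over all 16 libraries. Of 18 contigs 3 (16.7%) rose, against 2.08% of all tested contigs, each named sequestosome 1 or sequestosome. The list also holds contigs matched only by a WW domain in their name, which need not belong to this route. SR_contig_7824 rose by 3.39, SR_contig_976_C3.2 by 3.27 and SR_contig_1775_C3.1 by 2.70, and heated and control libraries did not overlap for any of them. SR_contig_1775_C3.1 had 1789 ± 439 normalised counts in heated and 273 ± 60.8 in control libraries (SD, n = 8 each). The fourth by p was a WW domain adapter (SR_contig_12550), with 0.46 and an adjusted p of 0.117 in limma, or 0.00354 without the 4 libraries. Filamin C (SR_contig_3895), a muscle protein that BAG3 helps to renew in mammals, had 0.10, and a synaptopodin-like contig (SR_contig_622) 0.30, neither past the test. With the 4 libraries left out 6 of the 18 rose, against a larger share of all tested contigs, 10.6%. The 3 added ones were the WW domain adapter, 14-3-3 zeta (SR_contig_1049), which rose by 0.43 there, and WW domain-binding protein 2 (SR_contig_4942), which rose by 0.33. The list of heat shock transcription factors held a single contig, heat shock factor-binding protein 1-like (SR_contig_5522), a negative regulator in human cells, with 0.23 (adjusted p = 0.348 in limma).

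**Figure D5:**
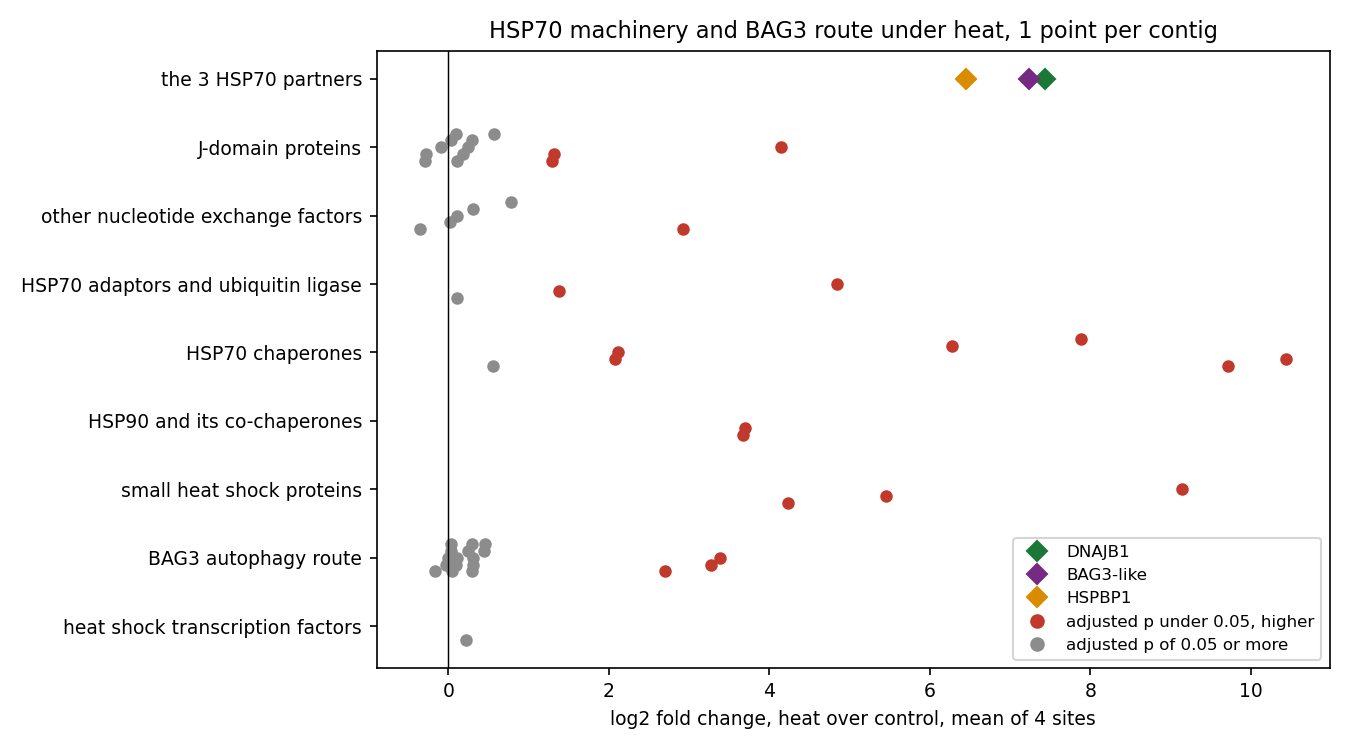
Log2 fold change of heat over control, averaged over the 4 sites, with 1 point per contig, red where the adjusted p is under 0.05 and grey otherwise, and diamonds for the 3 partners. The partners, at 6.46 to 7.44, lie above the J-domain proteins, which reach 4.15, and within the range of the HSP70 chaperones, which reach 10.44.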

How the data were processed

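Per the labels, whole-animal RNA was read in pairs of 100 bases, and each library has 1 column in the deposited table. CASAVA and DESeq are named, with no version, by the submitters' processing notes. Not given in the sources used here: assembler, mapper, build, filters. The authors deposited a signal, in which every library's read counts stand divided by its size factor. All values (100%) were whole multiples of their column's step within 0.01 read, and this gave the recovered reads. Neither a genome nor contig sequences were used, so contigs have no coordinates or lengths.

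The fit in limma 3.58.1 (R 4.3.3) used log2(value + 1), 8 groups of 2 (site by treatment) and a trended variance shared by all 16 libraries, over the 14444 contigs averaging at least 10. Adjustment was by Benjamini-Hochberg with a threshold of 0.05. Fold changes on this scale understate changes of low contigs. The members and lists were chosen with earlier results of these data known. Named contigs were the 3 partners, in each list up to 4 with the lowest heat p, and the 5 most like each partner; any others were named after their values were seen. The lists, by name patterns, were J-domain, BAG, other exchange factors, adaptors, HSP70, HSP90, small heat shock, BAG3 autophagy route and heat shock factors. Alternatives tried were a pseudocount of 0.5 or 5, a mean of at least 50 or none required, TMM, edgeR 4.0.16 quasi-likelihood and DESeq2 1.42.0 on recovered reads, a replicate block, only the libraries compared, and leaving out each library or the 4 that stand apart. Of these steps only the limma fit was tested on simulated reads, with changes larger than the regional differences of the 3 partners. Permutation tests were exact and two-sided (Python 3.11.15). The 2 libraries of a group differed by more than sampling noise in all 8 groups.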

Additional observations from a re-analysis of the deposited data

Results flagged for a closer look

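Of 18 groups of 4 or 8 libraries looked at for the 3 transcripts (treatments, and regions within treatments), 1 held a library far from the others, where chance gives about 1 in 20. Among the 4 northern controls the BAG3-like contig had 652 normalised counts in Pigeon Point control 1, against 446 to 464 in the other 3. That library is one of the 4 that stand apart. By share of all reads it had the lowest BAG3-like level of the 4 northern controls, at 0.00255%.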

How the results depend on the processing

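The log2 fold changes of heat moved by less than the spread between libraries in all alternatives, with 1 library left out from 7.32 to 7.56 for DNAJB1, 7.17 to 7.31 for the BAG3-like contig and 6.37 to 6.54 for HSPBP1. No regional or site test of DNAJB1 or the BAG3-like contig passed in any alternative, and the lowest adjusted p was 0.0938, for the BAG3-like contig under heat without the 4 libraries that stand apart. The difference between DNAJB1 controls, near 0, was -0.012 in DESeq2 and -0.21 to 0.26 with 1 library left out. Of the list contigs 20 to 23 rose with 1 library left out, 20 in edgeR and 23 in DESeq2. Over all contigs 613 were called, 2712 without the 4 libraries, 1313 in DESeq2 and 403 to 1097 with 1 library left out (403 without the second Slide Ranch control, 404 without the second Aliso Beach control, 1097 without the second heated La Jolla library); the cause was not tested. Without the 4 libraries r was 0.64 for DNAJB1 and the BAG3-like contig in controls, 0.93 for DNAJB1 and HSPBP1 under heat, and -0.23 for DNAJB1 and HSPBP1 in controls. Libraries of the same number share only that number: their deviations from the group means correlated at r = 0.64 (La Jolla), 0.10 (Aliso Beach), 0.69 (Pigeon Point) and -0.059 (Slide Ranch), across contigs, so a library went best with its own number at 3 of 4 sites. With a replicate block of these pairs 3093 contigs were called, 27 list contigs rose and 1 fell (SIL1 SR_contig_63994, -0.35), while the regional difference in the rise kept an adjusted p of 0.903 for both DNAJB1 and the BAG3-like contig in limma. A group down to 1 library was given the spread of the other groups. The lowest depth behind a member's value was 186 reads, for HSPBP1 in a control library.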
